A study of Mus musculus and Acomys cahirinus with 2 samples.

Results

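Desmosomes are the spot-like junctions that tie the keratin networks of neighbouring epithelial cells together. Their adhesive proteins are cadherins of 2 kinds, desmocollins and desmogleins. Inside the cell these bind the armadillo proteins plakoglobin and the plakophilins, and desmoplakin links that plaque to keratin filaments. In mouse and human epidermis the cadherin genes are known for being used in layers, with some members typical of basal cells and others of the upper layers. The genes described here are the 10 desmosome genes Dsc1, Dsc2, Dsc3, Dsg2, Dsg3, Jup, Pkp1, Pkp3, Dsp and Perp, chosen by symbol with case ignored from the 37386 gene names of the series. All 10 were found in the Mus gene list and 9 in the Acomys list; Pkp3 was not analysed here in Acomys.

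The series holds droplet single-cell libraries of adult ear skin, 1 from Acomys cahirinus (spiny mouse) and 1 from Mus musculus, both labelled day 0, although the design text of the series speaks of injured ears. Strain, sex and number of animals were not given in the sources used here. Values are counts of unique molecular identifiers (UMIs), each standing for 1 captured transcript 3′ end, and levels are CPM, the UMIs of a gene relative to all UMIs of a class, over the 15688 symbols that both gene lists hold. Because 1 tag is counted per transcript, levels are not divided by gene length, but genes may still differ in how well their 3′ ends are captured. With 1 library per species there is no replicate and no test: intervals are 95% and cover counting error only, and a gene is called higher or lower between classes when it differs at least 2-fold by size. Species, animal, library and annotation cannot be told apart.

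After filtering, the Acomys library held 4603 cells with a median of 7557 UMIs, and the Mus library 6556 cells with a median of 11784. Clusters were made with the desmosome genes kept out and were named from marker genes of each type. Suprabasal-like cells numbered 1097 in Acomys and 1506 in Mus, follicle-like cells 529 and 457, sebocyte-like cells 310 and 89, and basal-like cells 1104 and 3303 (Acomys, then Mus, in each pair). The sebocyte-like class differed in make-up between the libraries. In Acomys 272 of its 310 cells lay in cluster 6, with 6 sebocyte markers, and 38 in cluster 19, with 12. In Mus all 89 lay in cluster 15, with 14 sebocyte markers. Mus cluster 12, 182 cells with 5 sebocyte markers, was left unnamed. Unnamed clusters held 30.5% of the Acomys cells and 16.9% of the Mus cells. Depth moved with the classes: median UMIs per cell were 11877 in suprabasal-like, 6040 in follicle-like, 8471.5 in sebocyte-like and 8544 in basal-like cells of Acomys, and 19162, 7551, 14196 and 11203 in the same order in Mus. The libraries shared 31 cell barcodes, where 40.9 would be shared by chance.

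Free RNA bears on every low level below. Endothelium-like cells, which should lack most of these proteins although desmoplakin and plakoglobin also occur at endothelial junctions, held 198 CPM of Dsp in Acomys and 350 in Mus, 126 and 877 CPM of Perp, and 101 and 107 CPM of Dsc3. Their median depth was 3430 UMIs in Acomys and 5554 in Mus. Mus fibroblast-like cells held 604 CPM of Dsp and 2815 CPM of Perp, close to the basal-like levels of 720 and 3734. They also held 202 CPM of Pkp1, 282 of Dsc3, 451 of Jup and 377 of Pkp3. The basal-like levels of these were 222, 307, 514 and 602 CPM. How far the Mus basal-like levels of Dsp, Perp, Pkp1, Dsc3 and Jup lie above background is uncertain, also as references of ratios. A class level at or below the endothelium-like level is therefore read here as background. Nearly empty barcodes of 1 to 10 UMIs held levels close to many classes as well: the suprabasal-like Dsc3 level of Acomys was 95.9% of theirs, and in Mus the basal-like levels were 81.7% of theirs for Dsc3, 84.4% for Dsp, 86.9% for Jup, 82.4% for Pkp1 and 95.8% for Perp. An alternative that subtracted 10% of the UMIs of each class with their profile is given at the end.

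Among the desmocollins, the cadherins whose Dsc3 member is widespread in mouse and human epidermis, Dsc3 supplied nearly all UMIs in every class. It made up 93.0% of desmocollin UMIs in suprabasal-like cells of Acomys (interval 92.0 to 93.9), 91.3% in follicle-like, 88.9% in sebocyte-like and 93.9% in basal-like cells. In Mus the shares of Dsc3 were 90.6% in suprabasal-like, 93.6% in follicle-like, 93.4% in sebocyte-like and 98.7% in basal-like cells. Dsc3 thus led the family in both species, and the clearest departure was in Mus suprabasal-like cells, where Dsc1 took 9.26% (8.75 to 9.80) of desmocollin UMIs, against 0.981% (0.772 to 1.23) in Mus basal-like cells. Dsc3 also led in background. Mus fibroblast-like cells held 92 Dsc3, 4 Dsc1 and no Dsc2 UMIs, and Acomys endothelium-like cells held 28, 4 and 8. A Dsc3 share in a class near background is thus not read as isoform use.

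Dsc3 levels in Acomys were 289 CPM in suprabasal-like, 216 in follicle-like, 142 in sebocyte-like and 334 in basal-like cells. In Mus they were 571 CPM in suprabasal-like, 317 in follicle-like, 107 in sebocyte-like and 307 in basal-like cells. The libraries therefore had different orders. In Mus the suprabasal-like level was 1.86 times the basal-like level (1.81 to 1.92), whereas in Acomys it was 0.866 times (0.819 to 0.917). The Acomys ratio lay close to 1 and its direction turned to slightly higher when levels were averaged over cells (log2 0.02). The sebocyte-like Dsc3 level of Mus was the same as its endothelium-like level and is read as background. Fibroblast-like cells of Mus held 282 CPM of Dsc3 from 92 UMIs, near the basal-like and follicle-like levels.

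Dsc1, the desmocollin of the upper epidermal layers in mouse and human, stood at 58.4 CPM (55.0 to 61.9) in suprabasal-like cells of Mus, 19.8 in follicle-like cells, 1.08 in sebocyte-like cells (1 UMI) and 3.05 (2.40 to 3.82) in basal-like cells. The suprabasal-like level was 19.1 times the basal-like level (15.1 to 24.5), the widest ratio of any member in that contrast in Mus, although the basal-like level was itself no higher than the 5.93 CPM of endothelium-like cells (1 UMI). After thinning every cell to 2500 UMIs, 7.10% of suprabasal-like and 0.394% of basal-like Mus cells held a Dsc1 UMI. None of the 43 endothelium-like cells did, which allows up to 8.22%, and 3.77% of the 53 fibroblast-like cells did (0.460 to 13.0), at 12.3 CPM from 4 UMIs. Without thinning the shares were 37.7% of suprabasal-like, 2.18% of basal-like and 2.33% of endothelium-like cells. Acomys showed a much flatter profile, with 19.4 CPM in suprabasal-like, 12.8 in follicle-like, 13.6 in sebocyte-like, 9.29 in basal-like and 14.4 (3.92 to 36.8) in endothelium-like cells. Its suprabasal-like level was 2.09 times the basal-like one (1.55 to 2.86). The follicle-like, sebocyte-like and basal-like levels of Acomys lay below the endothelium-like level and are read as background. The suprabasal-like level lay above it but within its interval, and is not told apart from background. In Mus the endothelium-like level rests on 1 UMI and the fibroblast-like 12.3 CPM on 4. The follicle-like 19.8 CPM of Mus is thus not clearly above background either.

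Dsc2, the most widely expressed desmocollin of mouse and human tissues, was scarce in both libraries. Acomys held 2.40 CPM in suprabasal-like, 7.82 in follicle-like, 3.98 in sebocyte-like and 12.3 CPM (9.73 to 15.4) in basal-like cells. In Mus the levels were 0.891 CPM in suprabasal-like, 1.98 in follicle-like, 6.46 in sebocyte-like (6 UMIs) and 1.14 (0.757 to 1.65) in basal-like cells. The Acomys suprabasal-like level was 0.195 times the basal-like level (0.118 to 0.312), and in Mus the ratio was 0.782 with an interval from 0.401 to 1.48. Endothelium-like cells of Acomys held 28.7 CPM of Dsc2 (12.4 to 56.6, from 8 UMIs), above every epithelial class, so the Acomys levels are not read as epithelial expression. No Dsc2 UMI was seen among 43 Mus endothelium-like cells, which allows up to 17.8 CPM.

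**Figure D1:**
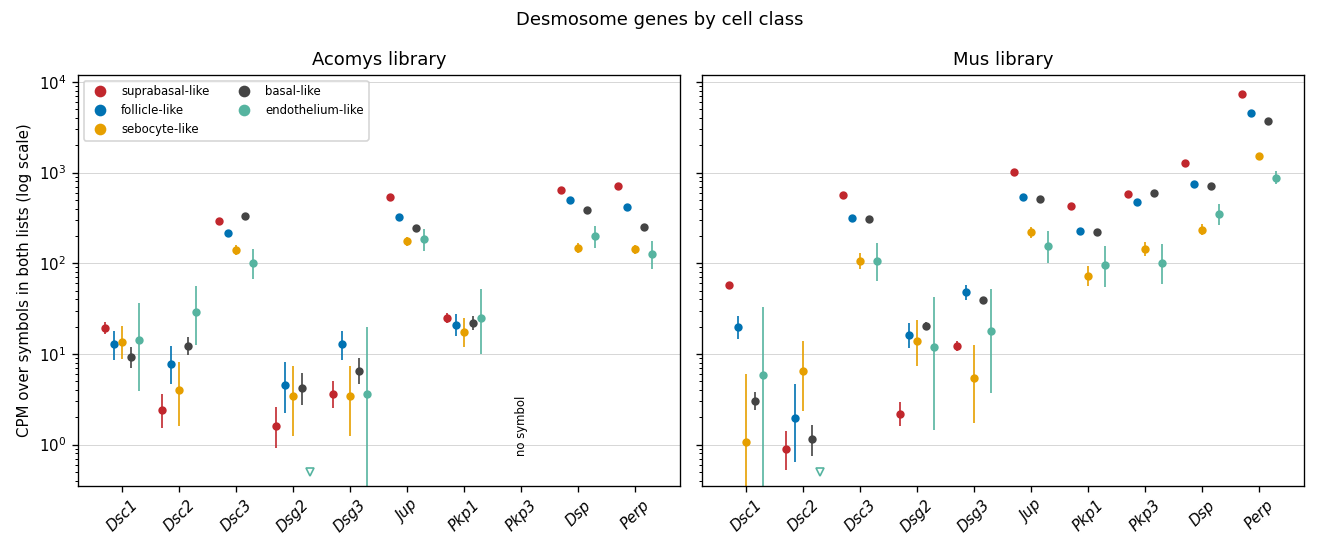
Levels of the 10 desmosome genes in CPM on a log axis, in the Acomys library (left) and the Mus library (right). Points are class sums with exact Poisson 95% intervals, colours are classes, and open triangles mark a class with no UMI; Perp stands between 1520 and 7445 CPM in the epithelial classes of Mus and between 142 and 715 CPM in those of Acomys.

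The desmogleins among the members, Dsg2 and Dsg3, ran the other way from Dsc1. Dsg3, a desmoglein of the lower epidermal layers in mouse and human, stood at 12.3 CPM in suprabasal-like, 48.0 in follicle-like, 5.38 in sebocyte-like and 39.0 in basal-like cells of Mus. Its suprabasal-like level was 0.316 times the basal-like level (0.273 to 0.365) and lay below the endothelium-like 17.8 CPM. In Acomys Dsg3 stood at 3.61 CPM in suprabasal-like, 12.8 in follicle-like, 3.41 in sebocyte-like and 6.57 in basal-like cells, and the suprabasal-like over basal-like ratio was 0.549 (0.341 to 0.881). Endothelium-like cells of Acomys held 3.59 CPM from 1 UMI, so the suprabasal-like and sebocyte-like levels are read as background. How far the follicle-like and basal-like levels lie above it is uncertain. In both libraries the follicle-like level was the highest of the classes. In Mus it was 1.23 times the basal-like level (1.01 to 1.49), and in Acomys 1.94 times (1.18 to 3.17), from 31 follicle-like UMIs.

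Dsg2, the desmoglein of simple epithelia that is also found in basal epidermis and follicles of mouse, stood at 2.2 CPM in suprabasal-like, 16.3 in follicle-like, 14.0 in sebocyte-like and 20.6 in basal-like cells of Mus. The suprabasal-like level was 0.107 times the basal-like one (0.0761 to 0.147). Endothelium-like cells of Mus held 11.9 CPM (1.44 to 42.8, from 2 UMIs), an interval that spans all 4 of these levels, although the suprabasal-like and basal-like intervals lie apart. Acomys held 16 Dsg2 UMIs in suprabasal-like, 11 in follicle-like, 6 in sebocyte-like and 26 in basal-like cells, and the suprabasal-like over basal-like ratio was 0.385 (0.193 to 0.745). No Dsg2 UMI was seen in endothelium-like cells of Acomys. T-cell-like cells held 8.81 CPM and melanocyte-like cells 12.5 CPM, each from 1 UMI, against 4.17 CPM in basal-like cells. How far the Acomys levels lie above background is thus uncertain.

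Mus has further desmogleins that are not members: Dsg1a, Dsg1b and Dsg1c, mouse copies of the desmoglein 1 of the upper layers. Their transcripts are near-identical, so the split between the copies is uncertain, and they were not analysed here in Acomys. Dsg1a stood at 824 CPM in suprabasal-like and 191 CPM in basal-like cells, a ratio of 4.31 (4.17 to 4.45). Dsg1b reached 7.11 times (6.03 to 8.43) and Dsg1c 3.04 times (1.58 to 6.14) its basal-like level. With these copies counted, Dsg1a supplied 92.7% of all desmoglein UMIs in suprabasal-like and 74.1% in basal-like cells of Mus, and Dsg3 supplied 1.38% and 15.1% in those classes. After thinning, 70.0% of suprabasal-like and 25.1% of basal-like Mus cells held a Dsg1a UMI. So did 20.8% (10.8 to 34.1) of fibroblast-like and 18.6% (8.39 to 33.4) of endothelium-like cells. The basal-like Dsg1a level, its share and its use as a reference are thus not clearly above background.

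The mouse cadherin genes lie side by side. In GRCm38.p6 the RefSeq annotation places 9 of them within 644 kb of chromosome 18, in the order Dsc3 (19960930 to 20002410), Dsc2, Dsc1, Dsg1c, Dsg1a, Dsg1b, Dsg4, Dsg3 and Dsg2 (20558074 to 20604526). Along that order the Mus suprabasal-like over basal-like ratio was 1.86 for Dsc3, 0.782 for Dsc2, 19.1 for Dsc1, 3.04 for Dsg1c, 4.31 for Dsg1a and 7.11 for Dsg1b. Beyond Dsg4, which had no UMI in either class, it was 0.316 for Dsg3 and 0.107 for Dsg2. Dsc1 and the Dsg1 copies in the middle of the array and Dsc3 at its end were thus higher in suprabasal-like cells, with Dsc2 between them not higher, and the genes at the Dsg2 end were lower.

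**Figure D2:**
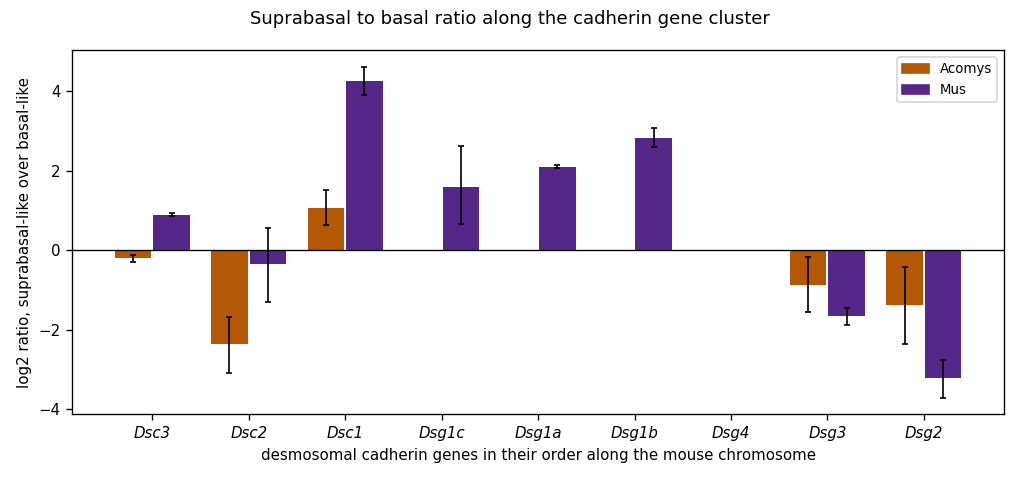
Log2 ratio of suprabasal-like over basal-like CPM for the desmosomal cadherin genes, in their order along mouse chromosome 18, for Acomys (orange) and Mus (purple), with 95% counting intervals. Mus bars stand at 4.25 for Dsc1 and at -3.21 for Dsg2; Dsg4 had no UMI, the Dsg1 copies were not analysed in Acomys, and gene order is that of the mouse only.

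Jup encodes plakoglobin, the armadillo protein shared by desmosomes and adherens junctions. Its Acomys levels were 538 CPM in suprabasal-like, 322 in follicle-like, 176 in sebocyte-like and 243 in basal-like cells. In Mus they were 1024 CPM in suprabasal-like, 532 in follicle-like, 220 in sebocyte-like and 514 in basal-like cells. The suprabasal-like level was 2.21 times the basal-like level in Acomys (2.09 to 2.34) and 1.99 times in Mus (1.95 to 2.04), just under the 2-fold limit. Sebocyte-like cells of Acomys were at the endothelium-like level of 183 CPM. T-cell-like cells of Acomys held 273 CPM from 31 UMIs, above the basal-like level. The basal-like reference of the Acomys ratio is thus not above every non-epithelial level. In Mus, fibroblast-like cells held 451 CPM of Jup from 147 UMIs, near the basal-like level. Jup was also abundant among nearly empty Acomys barcodes, so that the Acomys classes reached between 15.7% and 48.2% of its level there.

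The plakophilins strengthen the plaque by binding desmoplakin and the cadherins. In Mus, Pkp1, the plakophilin of the upper layers, stood at 427 CPM in suprabasal-like, 227 in follicle-like, 73.2 in sebocyte-like and 222 in basal-like cells. Its sebocyte-like level lay below the endothelium-like 94.9 CPM and is read as background. Fibroblast-like cells held 202 CPM of Pkp1 from 66 UMIs, near the basal-like and follicle-like levels. Pkp3, present through all epidermal layers in mouse, stood at 585 CPM in suprabasal-like, 469 in follicle-like, 144 in sebocyte-like and 602 in basal-like cells. Pkp1 was thus higher in suprabasal-like cells by 1.93 times (1.863 to 1.996), whereas Pkp3 was nearly level at 0.972 times (0.948 to 0.996). Among plakophilin UMIs of Mus, Pkp1 held 42.2% in suprabasal-like cells (41.5 to 42.9) and 26.9% in basal-like cells (26.3 to 27.5).

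Pkp1 of Acomys stood at 24.8 CPM in suprabasal-like, 21.0 in follicle-like, 17.6 in sebocyte-like and 21.9 in basal-like cells. The endothelium-like level was 25.2 CPM (10.1 to 51.8) and nearly empty barcodes held about as much, so Pkp1 was at background in all 4 classes of Acomys. Pkp2, the plakophilin of simple epithelia and heart and not a member, was found mainly in sebocyte-like cells. It stood at 11.9 CPM in sebocyte-like and 0.320 CPM in basal-like cells of Acomys, a ratio of 37.3 (9.11 to 328, from 21 and 2 UMIs). In Mus it stood at 24.8 CPM in sebocyte-like and 0.163 CPM in basal-like cells, a ratio of 152 (52.0 to 605, from 23 and 4 UMIs).

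Dsp encodes desmoplakin, the plakin that anchors keratin filaments to the plaque. Acomys held 642 CPM in suprabasal-like, 493 in follicle-like, 149 in sebocyte-like and 388 in basal-like cells, and Mus held 1268, 748, 236 and 720 CPM in the same classes. The suprabasal-like level was the highest and the sebocyte-like level the lowest in both libraries, while follicle-like and basal-like cells of Mus could not be ordered, since the log2 ratio of 0.06 kept its direction in 7 of 12 alternatives. The suprabasal-like over basal-like ratio was 1.65 (1.58 to 1.73) in Acomys and 1.76 (1.73 to 1.80) in Mus. The sebocyte-like level was 0.384 times the basal-like level (0.336 to 0.436) in Acomys and 0.328 times (0.285 to 0.374) in Mus, in both libraries below the endothelium-like level, so that Dsp of sebocyte-like cells is read as background.

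Perp, a tetraspan membrane protein that is needed for stable desmosomes in mouse skin, was the most abundant member in Mus and in Acomys suprabasal-like cells. Acomys held 715 CPM in suprabasal-like, 419 in follicle-like, 142 in sebocyte-like and 253 in basal-like cells. Mus held 7445 CPM in suprabasal-like, 4505 in follicle-like, 1520 in sebocyte-like and 3734 in basal-like cells. The suprabasal-like level was 2.82 times the basal-like level (2.67 to 2.98) in Acomys and 1.99 times (1.98 to 2.01) in Mus. Melanocyte-like cells of Acomys held 237 CPM from 19 UMIs, close to the basal-like level. After thinning, 66.6% of suprabasal-like and 33.3% of basal-like Acomys cells held a Perp UMI, against 14.1% of endothelium-like cells; without thinning the shares were 96.1%, 70.2% and 24.2%. In Mus nearly every epithelial cell did, and so did 72.1% of the endothelium-like cells.

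Promoter stretches from the RefSeq promoter table of GRCm38.p6 were examined for 2 of the 10 members, Jup and Dsp. Promoters of the other members were not examined here, and the 2 were not picked by their levels. Both genes ran higher in suprabasal-like and lower in sebocyte-like than in basal-like cells of both libraries. The stretches lie upstream of the outermost annotated gene end, are written 5′ to 3′ on the strand of the gene, and carry in capitals each match of the GC box GGGCGG on either strand.
Jup (chr11:100397840-100398040, minus strand): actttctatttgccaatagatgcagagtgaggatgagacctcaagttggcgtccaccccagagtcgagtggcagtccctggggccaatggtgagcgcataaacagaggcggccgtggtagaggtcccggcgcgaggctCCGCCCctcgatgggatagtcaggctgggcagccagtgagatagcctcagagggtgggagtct
Dsp (chr13:38151044-38151293, plus strand): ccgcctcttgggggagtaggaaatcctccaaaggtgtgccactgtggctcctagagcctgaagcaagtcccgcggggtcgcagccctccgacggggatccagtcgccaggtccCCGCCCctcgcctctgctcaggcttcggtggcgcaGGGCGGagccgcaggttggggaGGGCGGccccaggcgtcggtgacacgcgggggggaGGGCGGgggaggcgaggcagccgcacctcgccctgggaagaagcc
The Jup stretch of 201 bases had 1 such match, and 24.8% of 32817 promoters hold at least 1 in their first 201 bases. The Dsp stretch of 250 bases had 4, and 32.7% of promoters hold at least 1 in a window of that length. The letters TGANTCA (a motif of AP-1), AACCNGTT (of grainyhead factors) and TATAAA (of core promoters), searched on both strands, were not found in either window, where between 1.42% and 12.4% of promoters hold them.

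Counted over the members, suprabasal-like cells of Acomys had 3 of 9 members at least 2-fold higher than basal-like cells (Perp, Jup and Dsc1) and 2 at least 2-fold lower (Dsc2 and Dsg2). Of these 5, the Dsc2 levels and the basal-like Dsc1 level were read as background above. The suprabasal-like Dsc1 level was not told apart from it. The Dsc1 and Dsc2 calls are therefore not read as differences between the classes, here and in the subsets below. The Jup call has a basal-like reference below the T-cell-like level. How far the Dsg2 levels of Acomys lie above background is uncertain, here and in the subsets below. Among all genes with at least 20 UMIs in the classes compared, 7.07% were higher and 26.3% lower in that contrast. In Mus 1 of 10 members was higher (Dsc1) and 2 were lower (Dsg2 and Dsg3), where the shares over all genes were 8.01% and 24.8%. Jup and Perp of Mus, both at 1.99 times, just missed the limit, so the Mus count moves with small changes of scale: it was 4 with CPM over all genes. The median log2 ratio of the members was 0.18 in Acomys and 0.86 in Mus, where that of all genes was -0.49 and -0.45. The medians of all genes lie below 0 in both libraries, and the ratios given here are not corrected for that shift.

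Between follicle-like and basal-like cells the count of members called was near the shares over all genes, and nothing particular to the members is read from it. None of the 9 Acomys members and 1 of the 10 Mus members was at least 2-fold higher, and none was lower in either library, where 7.16% of all genes were higher in Acomys and 12.1% in Mus, and 10.1% were lower in Acomys and 7.07% in Mus. The member in question was Dsc1 of Mus, at 6.49 times the basal-like level (4.45 to 9.41). Its follicle-like level was not clearly above background. In Acomys the highest follicle-like ratios were 1.94 for Dsg3 and 1.65 (1.53 to 1.79) for Perp, and Dsc3 stood at 0.645 times (0.585 to 0.710).

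Sebocyte-like cells held less of the desmosome genes than the other classes. Over the 9 members found in both gene lists, the summed level was 650 CPM (613 to 689) in sebocyte-like and 1274 CPM in basal-like cells of Acomys, and 2182 CPM (2088 to 2279) in sebocyte-like and 5560 CPM in basal-like cells of Mus. In Acomys 3 of 9 members (Dsp, Dsc2 and Dsc3) were at least 2-fold lower and none higher, and in Mus 7 of 10 were lower (Dsp, Jup, Pkp1, Pkp3, Dsc3, Dsg3 and Perp) and 1 higher. Over all genes 15.8% were lower and 5.78% higher in Acomys, and 23.7% were lower and 13.4% higher in Mus. The higher member was Dsc2 of Mus, on 6 sebocyte-like UMIs. The median log2 ratio was -0.83 for the members and -0.21 for all genes in Acomys, and -1.41 for the members and -0.21 for all genes in Mus. Since most of these levels are near those of endothelium-like cells, they bound what sebocyte-like cells hold from above. The class also differed in make-up between the libraries, as given above, so the libraries are not ranked by these counts.

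**Figure D3:**
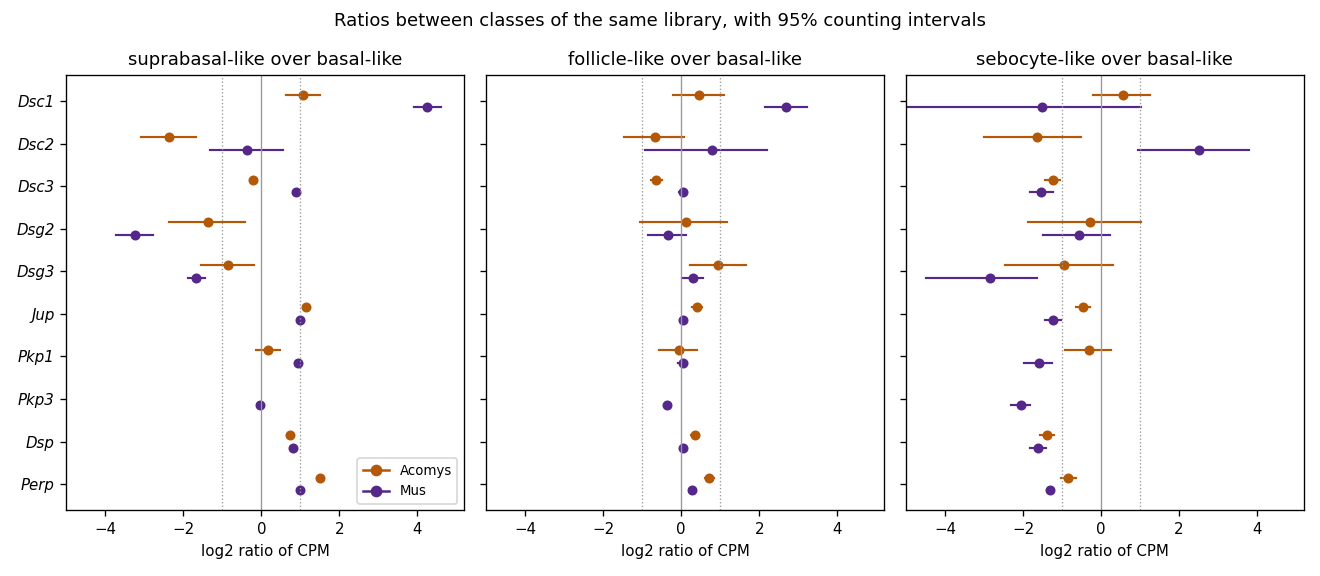
Log2 ratio of class CPM over basal-like CPM for each member, in suprabasal-like (left), follicle-like (middle) and sebocyte-like cells (right), with Acomys (orange) drawn above Mus (purple) for each gene. Bars are 95% counting intervals and dotted lines mark 2-fold. The follicle-like points lie within the dotted lines apart from Dsc1 of Mus at 2.70, and the sebocyte-like points lie mostly to the left.

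Within the suprabasal-like class the clusters could be ordered by the summed CPM of the late differentiation markers Lor, Ivl, Flg2, Casp14 and Klk7. In Mus this sum was 586 CPM in cluster 2, 627 in cluster 4, 1192 in cluster 9 and 52445 in cluster 13. Basal-like clusters of Mus held 565 to 651 CPM of the same markers, so clusters 2 and 4 were at the basal-like level and their place in the order is uncertain. Dsc1 of Mus stood at 3.05 CPM in basal-like cells and then at 13.3, 44.7, 117 and 144 CPM along those clusters. Dsc3 stood at 307 CPM in basal-like cells, then at 565, 668 and 682 CPM, and at 135 CPM (120 to 151) in cluster 13. As a result Dsc1 and Dsc3 had similar shares of desmocollin UMIs in the late cluster, 51.6% (47.6 to 55.5) for Dsc1 and 48.4% for Dsc3, whereas Dsc1 held 2.29% in cluster 2. The Dsc3 level of cluster 13 lay near the 107 CPM of endothelium-like cells (18 UMIs) and below the 282 CPM of fibroblast-like cells. The part of free RNA in the shares of cluster 13 was not tested.

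In Acomys the late marker sum was 251 CPM in cluster 4, 260 in cluster 1, 391 in cluster 15 and 4675 in cluster 9. Basal-like clusters of Acomys held 148 to 463 CPM, so only cluster 9 stood above them. Dsc3 stood at 334 CPM in basal-like cells, then at 416, 343 and 291 CPM, and at 127 CPM (114 to 140) in cluster 9. Dsc1 stood between 17.4 and 28.5 CPM in all 4 clusters, and its share of desmocollin UMIs in cluster 9 was 13.9% (10.9 to 17.4). In cluster 9 Dsc3 lay near the 101 CPM of endothelium-like cells (28 UMIs), so that share sets levels near background against each other. The low Dsc3 level in the latest cluster was thus seen in both libraries. The steps of Dsc1 across clusters were seen in Mus.

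Set against the other suprabasal-like cells of its library, the late cluster had 220 cells in Acomys and 162 in Mus, with median depths of 20593 and 19620 UMIs, and the other suprabasal-like cells had 11042 in Acomys and 19119 in Mus. Dsc3 in the late cluster was 0.349 times its level in the other cells (0.313 to 0.388) in Acomys and 0.214 times (0.190 to 0.239) in Mus. The other suprabasal-like cells alone held Dsc3 at 1.09 times (1.02 to 1.15) the basal-like level in Acomys and 2.05 times (1.99 to 2.12) in Mus. In that contrast 2 of 9 Acomys members were at least 2-fold higher (Dsc1 and Perp) and 2 lower (Dsc2 and Dsg2), where 4.62% of all genes were higher and 20.6% lower. In Mus 4 of 10 were higher (Dsc1, Dsc3, Jup and Perp) and 2 lower (Dsg2 and Dsg3), where 6.37% of all genes were higher and 23.1% lower. Of the members with at least 20 UMIs, 2 of 8 in Acomys were at least 2-fold lower in the late cluster (Dsc3, and Dsc2 on 4 and 20 UMIs) and none was higher. In Mus 1 of 9 was lower (Dsc3) and 1 was higher (Dsc1, 3.08 times, 2.70 to 3.50). Over all genes 23.7% were lower and 7.24% higher in Acomys, and 29.2% were lower and 9.7% higher in Mus. The median log2 ratio of all genes was -0.42 in Acomys and -0.50 in Mus. The Mus Dsc1 log2 ratio of 1.62 was 0.20 with no doublet removal and 0.49 with desmosome genes among the variable genes; both settings also change the clusters, and the cause was not tested.

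Dsp, Jup and Perp were within 2-fold across that step. Dsp was 1.11 times as high in the late cluster as in the other suprabasal-like cells of Acomys (1.06 to 1.17) and 1.12 times (1.08 to 1.16) in Mus. Jup was 1.40 times (1.33 to 1.48) in Acomys and 0.784 times (0.748 to 0.822) in Mus, and Perp 1.27 times (1.21 to 1.33) in Acomys and 0.802 times (0.788 to 0.816) in Mus. Jup and Perp thus lay on opposite sides of 1 in the libraries, while Pkp1 was 0.925 times (0.694 to 1.22) in Acomys and 0.744 times (0.689 to 0.802) in Mus, and Pkp3 0.769 times (0.721 to 0.819) in Mus. Over the alternatives the Mus log2 ratio reached -0.98 for Dsp, whose direction held in 9 of 12, -1.02 for Jup and -1.81 for Pkp1.

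**Figure D4:**
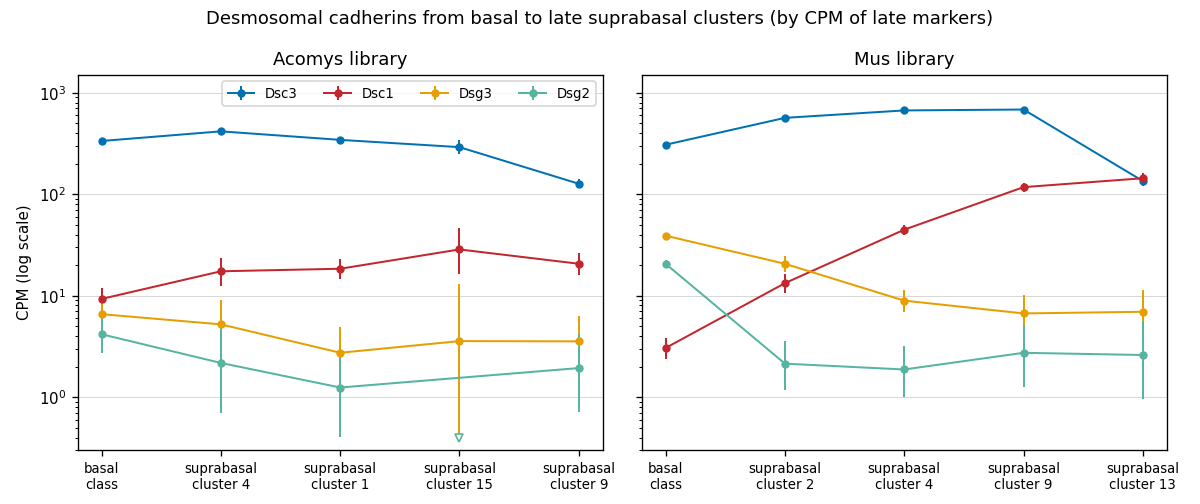
CPM on a log axis of Dsc3, Dsc1, Dsg3 and Dsg2 in the basal-like class and then in the suprabasal-like clusters ordered by late marker CPM, in Acomys (left) and Mus (right). Points carry exact Poisson 95% intervals and an open triangle marks no UMI; Dsc3 drops to 127 CPM in the last Acomys cluster and to 135 CPM in the last Mus cluster, and Dsc1 of Mus climbs to 144 CPM.

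Other desmosome genes and regulators were described beside the members. In suprabasal-like over basal-like cells, 5 of 6 such genes with enough UMIs in Acomys were at least 2-fold higher and 1 was lower, and in Mus 9 of 11 were higher and 1 lower. Over all genes 7.07% were higher and 26.3% lower in Acomys, and 8.01% were higher and 24.8% lower in Mus. Ppl (periplakin) was 2.59 times (2.27 to 2.95) as high in Acomys and 2.76 times (2.60 to 2.94) in Mus, and Evpl (envoplakin) 2.05 times (1.81 to 2.34) in Acomys and 2.94 times (2.74 to 3.15) in Mus. Both are plakins of the cornified envelope. Grhl1, a transcription factor of the grainyhead family that activates desmosomal cadherin genes in mouse, was 4.04 times (2.74 to 6.16) in Acomys and 4.56 times (4.26 to 4.89) in Mus. Pof1b, an actin-binding protein seen at human desmosomes, was 2.11 times in Acomys and 2.99 times in Mus. Kazn, a periplakin-binding protein, was 2.58 times in Mus. After thinning, 0.725% of basal-like and 2.02% (0.246 to 7.11) of endothelium-like Acomys cells held a Grhl1 UMI. For Ppl of Acomys these shares were 6.79% and 8.08% (3.55 to 15.3). The Acomys basal-like references of Grhl1 and Ppl are thus not told apart from background.

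Cdsn, the corneodesmosome protein of the outermost layers, was 10.4 times as high in suprabasal-like as in basal-like cells of Acomys and 14.2 times in Mus; it was among the leading genes of the late Mus cluster, so its value there is not a result. Its background was high in Acomys: after thinning 22.2% of endothelium-like cells held a Cdsn UMI, against 21.9% of suprabasal-like, 18.9% of follicle-like and 12.6% of basal-like cells, and its endothelium-like level was 162 CPM. The Acomys basal-like level of 89.2 CPM is thus read as background. Trp63, the transcription factor of basal keratinocytes, was lower in suprabasal-like cells, at 0.476 times (0.375 to 0.603) in Acomys and 0.566 times (0.543 to 0.589) in Mus, which in Mus was within 2-fold. Pkp4, an armadillo protein of cell junctions, stood at 0.291 times (0.247 to 0.340) in Mus. In follicle-like over basal-like cells 2 of 6 Acomys genes of this list were higher (Cdsn, 5.09 times, and Grhl1, 3.08 times) and 2 of 10 Mus genes (Cdsn, 11.1 times, and Dsg1b, 2.59 times), and none was lower. The shares over all genes were 7.16% higher and 10.1% lower in Acomys, and 12.1% higher and 7.07% lower in Mus, so the Mus count is near its share. In Acomys the basal-like reference of Cdsn was read as background above, and that of Grhl1 was not told apart from it. In sebocyte-like over basal-like cells Pkp2 was the higher gene of the list in both libraries, and 3 of 7 genes were lower in Acomys (Evpl, Ppl and Pof1b) and 7 of 11 in Mus. There 15.8% of all genes were lower and 5.78% higher in Acomys, and 23.7% were lower and 13.4% higher in Mus.

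Cycling basal-like cells, 213 in Acomys and 790 in Mus, were set against the 891 and 2513 other basal-like cells. Their median depth was 12415 UMIs in Acomys and 14901 in Mus, and that of the other basal-like cells 8002 in Acomys and 10540 in Mus. None of the 9 Acomys and none of the 10 Mus members passed 2-fold, where 6.84% of all genes were higher in each library and 3.83% were lower in Acomys and 1.73% in Mus, so the count is near that over all genes. The ratios farthest from 1 were those of Pkp1 (0.622, 0.389 to 0.960) and Dsg3 (1.53, 0.754 to 3.002) in Acomys and Dsc2 (1.67, 0.723 to 3.77) in Mus, the last pair on few UMIs. Pkp1 was at background in basal-like cells of Acomys, so its ratio is not read as a difference. Dsc3 was 0.776 times (0.699 to 0.861) the level of the other basal-like cells in Acomys and 0.750 times (0.712 to 0.791) in Mus. Perp was 0.794 times in Acomys and 0.769 times in Mus, and Dsp 0.893 times in Acomys and 0.751 times in Mus.

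The follicle-like class was split by its cluster of most Krt79, a keratin of the upper follicle, which held 295 of the 529 Acomys and 216 of the 457 Mus cells. Median depth was 7735 UMIs in the Krt79-rich and 4235.5 in the other cells of Acomys, and 8534.5 and 6599 in those of Mus. In Mus the Krt79-rich cells held 32.1 CPM of Dsc1 and the other follicle-like cells 5.91, a ratio of 5.44 (2.43 to 14.3), and 958 CPM of Dsp against 512, a ratio of 1.87 (1.70 to 2.06). The Dsc1 background of Mus rests on 1 endothelium-like and 4 fibroblast-like UMIs, so how far 32.1 CPM lies above it is uncertain. In Acomys the Krt79-rich cells held 5.99 CPM of Dsg3 and the other follicle-like cells 27.6, a ratio of 0.217 (0.0912 to 0.481) from 10 and 21 UMIs. In Mus the Dsg3 ratio was 0.763 (0.524 to 1.11). Of members with at least 20 UMIs, 1 of 7 was at least 2-fold lower and none higher in Acomys, where 11.2% of all genes were lower and 5.04% higher. In Mus 1 of 9 was higher and none lower, where 5.49% of all genes were higher and 17.2% lower.

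Between the libraries, Perp showed the widest gap of the well-detected members. Perp of Acomys was 0.0961 times the Mus level in suprabasal-like cells, 0.0930 in follicle-like, 0.0935 in sebocyte-like and 0.0678 in basal-like cells. Pkp1 of Acomys was 0.0582, 0.0924, 0.241 and 0.0991 times the Mus level in the same classes, but its Acomys levels were at background. By contrast Dsc3 was 1.09 times (1.04 to 1.14) the Mus level in basal-like cells, and 0.507 times (0.487 to 0.528) in suprabasal-like cells. In suprabasal-like cells 4 of 9 members stood below the Mus level by at least 2-fold and 1 above it (Dsc2), where 42.3% of all genes were lower and 15.2% higher. In basal-like cells 5 were lower and 2 higher (Dsc1 and Dsc2), where the shares were 40.4% and 15.7%. In follicle-like cells 4 were lower and 1 higher, with shares of 40.7% and 12.7%, and in sebocyte-like cells 3 were lower (Dsg2 on only 19 UMIs) and 1 higher, with shares of 34.8% and 18%. These counts of members are close to what the shares over all genes would give. A gap of like size in every class, as for Perp, was measured with different annotations, whose part in it was not tested.

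The genes whose patterns lay nearest to each member were taken over the 22 Acomys and 20 Mus clusters, as the 3 highest by the lower of the 2 Pearson correlations of log2 CPM among 5110 genes. Clusters of a library share that library and its free RNA and differ in depth, so these values only describe. Rab25, which encodes a small GTPase of epithelial cells, lay nearest to Dsp (r = 0.93 in Acomys and 0.91 in Mus). Perp lay nearest to Serpinb5 (0.88 and 0.89), a clade B serpin of keratinocytes, and was itself among the 3 nearest to Jup (0.80 and 0.96). Evpl was among the 3 nearest to Perp. Dsg3 lay nearest to Trps1 (0.83 and 0.82), a GATA-type transcription factor, Dsc3 to Capns2 (0.77 and 0.82), and Dsc1 to Fuca1 (0.76 and 0.75). The values for Dsg2 (Tpst1, 0.76 and 0.88), Pkp1 (Dmkn, 0.72 and 0.83) and Dsc2 (Nme6, 0.69 and 0.68) rest on few UMIs in Acomys.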

How the data were processed

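The authors deposited unnormalised UMI counts, 1 matrix for each library. Per the submitters' processing notes, Cell Ranger 2.2.0 and build mm10 were used; the source of the Acomys gene models is not given. Each matrix lists 737280 barcodes. A barcode was kept as a cell above a UMI minimum, 1/10 of the total found at percentile 99 among the 3000 deepest barcodes (lowest kept 2875 in Acomys, 4695 in Mus) with at least 200 genes and at most 20% mitochondrial UMIs (4 Mus barcodes left out; the Acomys list has no mitochondrial gene). The 183 Acomys and 386 Mus cells with the highest doublet scores (Scrublet method, 0.8% per 1000 cells) were left out. Library totals were 71042559 UMIs in Acomys and 130039670 in Mus, of which 55.6% and 69.3% lay in cells.

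Each library was clustered alone with scanpy 1.11.5 (2000 variable genes without desmosome genes, 30 components, 20 neighbours, Leiden resolution 1, seed 1). A name needed 3 markers, each with a UMI in at least 20% of the cells and 1.5 times the mean of other clusters. Leading genes of another type spoke against a name only where that type had 3 counted markers in some cluster. UMIs were summed per class. Levels carry exact Poisson, shares exact Clopper-Pearson and ratios exact conditional binomial intervals (scipy 1.17.1), computed and tested on simulated data. Log2 ratios used a prior count of 0.5. The named genes were all members, list genes past 2-fold with at least 20 UMIs, and the 3 nearest patterns among genes of at least 30 CPM in a cluster of each library. Some of the nearest patterns are not reported here.

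The members and lists were chosen with earlier results of these data known. The rule on leading genes and the late, cycling and Krt79-rich subsets were chosen after the data were examined.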

Additional observations from a re-analysis of the deposited data

Results flagged for a closer look

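In 4 cases a member's ratio lay above 1 in a library and below 1 in the other with both counting intervals clear of 1. Other ratios also lay on opposite sides of 1, but with at least 1 interval that holds 1. Each is given as the Acomys minus the Mus log2 ratio, and with 1 library per species none of the differences was tested. For Dsc3 in suprabasal-like over basal-like cells the difference was -1.10, from log2 ratios of -0.21 in Acomys and 0.89 in Mus. For Dsc2 in sebocyte-like over basal-like cells it was -4.14, from -1.54 in Acomys and 2.59 in Mus. That case rests on 7 and 6 sebocyte-like UMIs, with the Acomys levels at background and the class unlike in make-up. For Jup in late over other suprabasal-like cells the difference was 0.84, from 0.49 in Acomys and -0.35 in Mus. For Perp in the same contrast it was 0.67, from 0.35 in Acomys and -0.32 in Mus. The late cluster of Acomys was deeper than its other suprabasal-like cells (medians of 20593 and 11042 UMIs) and that of Mus was not (19620 and 19119), and the part of depth in these differences was not tested. For Dsc3 the late cluster, where its level was low, held 220 of 1097 suprabasal-like cells in Acomys and 162 of 1506 in Mus. Without it both libraries lay above 1, at log2 0.12 in Acomys and 1.04 in Mus. The Acomys ratio of the whole class was 0.02 as a mean over cells.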

How the results depend on the processing

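Of 38 ratios between classes of a library past 2-fold, 37 kept their direction under all 12 alternatives. The exception was Dsg2 in Krt79-rich over other follicle-like cells of Acomys, with a log2 ratio of -1.87 that became 0.25 with no doublet removal, on 4 and 7 UMIs. Counts of members moved as follows. Members higher in suprabasal-like than in basal-like cells of Mus numbered 1, but 2 with a UMI minimum of 1000 or at resolution 0.5, 3 with no doublet removal or at resolution 2, and 4 with CPM over all genes, with 10% free RNA subtracted, or when leading genes of any listed type counted against a name (an alternative chosen after seeing the data). The same count in Acomys was 3, and 1 with CPM without ribosomal protein genes. Follicle-like members higher in Acomys numbered 0, but 2 at resolution 0.5 and 1 with no doublet removal, at resolution 2, without cycling clusters, with CPM over all genes, as a mean over cells or with free RNA subtracted. In Mus that count was 1, and 2 with a UMI minimum of 1000, with desmosome genes among the variable genes, without cycling clusters, with CPM over all genes, as a mean over cells or under the stricter naming. Sebocyte-like members higher in Mus numbered 1, and 0 at resolution 0.5 or with unnamed clusters counted. Those lower in Acomys numbered 3, and 6 with free RNA subtracted. Members lower in Acomys than in Mus sebocyte-like cells numbered 3, and 5 with unnamed clusters counted or free RNA subtracted, and those higher in suprabasal-like cells numbered 1, and 0 with free RNA subtracted. The cause of these moves was not tested.

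The late over other suprabasal-like log2 ratio of Dsc3 ran from -3.36 to -1.39 in Acomys and from -2.98 to -1.27 in Mus. That of Dsc1 in Mus was 0.20 with no doublet removal and 0.49 with desmosome genes among the variable genes, against 1.62. Depth limits Dsc2, Dsg2 and Dsg3 in Acomys, which had 101, 42 and 77 UMIs in suprabasal-like and basal-like cells together. No paired analysis was possible because each species has 1 library.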

Other observations

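Among the unnamed clusters, Mus cluster 17 stood apart in its cadherins. It held 79 cells with a median of 36722 UMIs and was led by Stfa2, Krt6a, a keratin induced in injured mouse epidermis, and the growth factor genes Areg and Epgn. Its Dsc2 level was 20.8 CPM (14.8 to 28.4, from 39 UMIs), and no other Mus cluster held more than 6.46 CPM. Its Dsg3 level was 71.0 CPM (59.4 to 84.1), its Dsg2 level 4.27 CPM (1.84 to 8.41) and its Dsc1 level 10.7 CPM (6.52 to 16.5). The basal-like class of Mus held 1.14 CPM of Dsc2, 39.0 CPM of Dsg3, 20.6 CPM of Dsg2 and 3.05 CPM of Dsc1. The cluster was chosen after its values were seen, was counted as cycling, and with its high depth the part of doublets in it was not tested.

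Mus cluster 12, 182 cells with counted markers of both follicle and sebocyte and of the cell cycle, held the highest Dsg2 level of the Mus clusters, 33.6 CPM from 47 UMIs, with 15.7 CPM of Dsg3.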
